A study of Homo sapiens with 24 samples.

Results

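Ribosome biogenesis and nucleolar genes were followed in MDA-MB-231 and MDA-MB-453, both established lines from human breast cancer without the oestrogen receptor. The 41 genes were taken as a fixed list of factors that transcribe the ribosomal RNA precursor, process it and assemble the ribosomal subunits, out of 59609 genes in the count table. All 41 had a row in the table, 40 had enough counts to be tested in each line, and NOP2, a large-subunit RNA methyltransferase, did not. Each wild-type line was grown for 5 days with the DMSO vehicle, with abemaciclib at 500 nM (an inhibitor of the cell cycle kinases CDK4 and CDK6), with fulvestrant at 5 nM (a degrader of the oestrogen receptor) or with both drugs. There were 3 libraries in each of the 8 groups and 24 in all. MDA-MB-231 was kept in RPMI-1640 medium and MDA-MB-453 in DMEM, so the medium and the line cannot be told apart in comparisons between lines, and each line is 1 culture lineage. The libraries read the 3′ ends of mRNAs, and levels are given as CPM, the counts scaled to a library of 1000000 with the TMM factors of edgeR. Such values are shares of the RNA sequenced and give no amount per cell, and less of an mRNA in each cell cannot be told apart from fewer cells that express it.

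Ribosome production begins in the nucleolus, where RNA polymerase I transcribes the precursor of the 18S, 5.8S and 28S ribosomal RNAs. Small nucleolar ribonucleoproteins (snoRNPs) then modify the transcript, those of the box C/D class by 2′-O-methylation and those of the box H/ACA class by pseudouridylation, while assembly factors fold and cut it into the precursors of the small and large subunits. Many of these factors are needed in growing cells and are well known as targets of the transcription factor MYC, which binds the E-box CACGTG with its partner MAX.

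The E-box was looked for because of that background, in RefSeq promoter windows (GRCh38.p14) that ran from 250 bases before a transcript start to 50 bases after it. Windows were found for 36 of the 41 members, and 16 of the 36 held at least 1 E-box, with 18 E-boxes in all. By window, 17 of 47 (36.2%) held the motif, against 7.26% of all 35116 windows, 9.35% of the windows of genes tested between the lines and 26.4% of the 129 windows of other ribosome biogenesis genes. A second word, the ETS-type CCGGAAG, read on both strands as were all words that are not their own reverse complement, was in 40.4% of the members' windows, against 10.3% of all windows, 17.3% of those of tested genes and 40.3% of those of other ribosome biogenesis genes. The GC box GGGCGG was in 66% of the members' windows and in 66.3% of the windows of tested genes. The E2F-type words TTTCCCGC and TTTGGCGC were in 2.13% and 0% of the members' windows, against 2.45% and 1.02% for tested genes. These matches describe letters in a window and not binding.

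Of the 18 E-boxes, 15 began between 31 bases before the start and base 43 after it. These bounds are the positions of the E-boxes of DDX21 and EBNA1BP2, so they were set after the positions were seen. The E-boxes of all windows were not counted in this way, so that number has no background beside it. The windows below are those of the 6 members with an E-box that fell with abemaciclib in both lines, followed by that of NOP10, which did not pass the test in any comparison of abemaciclib. They are shown 5′ to 3′ on the strand of the gene, 30 bases each, with the E-box in capitals, and for NOP10 the first of its 2 E-boxes.
FBL, chr19:39846356-39846385, minus strand: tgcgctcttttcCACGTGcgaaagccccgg
RRP9, chr3:51941892-51941921, minus strand: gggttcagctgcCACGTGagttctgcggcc
DDX21, chr10:68956604-68956633, plus strand: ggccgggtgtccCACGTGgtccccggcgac
LYAR, chr4:4290068-4290097, minus strand: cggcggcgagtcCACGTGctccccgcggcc
GAR1, chr4:109815781-109815810, plus strand: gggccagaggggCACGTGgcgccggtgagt
EBNA1BP2, upstream start, chr1:43172790-43172819, minus strand: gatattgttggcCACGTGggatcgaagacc
EBNA1BP2, downstream start, chr1:43172241-43172270, minus strand: tggcgctggagcgattcggtggCACGTGga
NOP10, chr15:34343289-34343318, minus strand: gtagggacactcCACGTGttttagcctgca

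The E-box began at base 7 after the start in FBL, 5 bases before it in RRP9, 31 bases before it in DDX21 and 64 bases before it in LYAR. The motif was in 6 of the 14 members with a window that fell in both lines with abemaciclib, in 6 of 10 that fell in MDA-MB-231 only, and in 3 of 9 that fell in neither. With abemaciclib, the median log2 fold change in MDA-MB-231 was −0.79, and in MDA-MB-453 −0.22, over the 15 tested members with an E-box, and −0.56 and −0.39 over the 20 with a window and none.

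Library totals ran from 2873558 to 4158762 counts. The lines matched their names: 3 MDA-MB-231 markers (VIM, CD44 and FN1) summed to 1619 to 2283 CPM in MDA-MB-231 libraries, and all 3 were at 0 in every MDA-MB-453 library. Of the MDA-MB-453 markers, FOXA1, ERBB2, TFF3 and GRB7 summed to 546 to 992 CPM in MDA-MB-453, against 20.4 to 37.5 CPM. ESR1, the gene of the oestrogen receptor, had 16 counts in all, in 3 of the 24 libraries. Mitochondrial transcripts moved with abemaciclib, going in MDA-MB-231 from 8.83% ± 0.213 (SD, n = 3) to 12.2% ± 1.06 of counts, and in MDA-MB-453 from 15.2% ± 0.653 to 23.8% ± 1.91. The 41 members together took 1.25% ± 0.00116 of counts under DMSO and 0.828% ± 0.0255 with abemaciclib in MDA-MB-231. The same shares in MDA-MB-453 were 0.515% ± 0.0205 and 0.376% ± 0.00972. Of non-mitochondrial counts, the members' share was 1.37% ± 0.00173 and 0.943% ± 0.0262 in MDA-MB-231, against 0.607% ± 0.0202 and 0.494% ± 0.0250 for MDA-MB-453, so the groups were also apart without the mitochondrial genes.

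The first comparison was that of the lines under DMSO. Members were mostly lower in MDA-MB-453: 35 of the 40 tested were called lower and 2 higher by edgeR's quasi-likelihood test at a Benjamini-Hochberg adjusted p under 0.05, with a median log2 difference of −1.13. Among all 12750 genes tested between the lines, 35.6% were called lower and 34.3% higher, with a median of −0.03. All 7 multifunctional nucleolar proteins, all 3 box C/D proteins, 8 of 9 small-subunit factors and 11 of 12 large-subunit factors were lower in MDA-MB-453.

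NPM1, or nucleophosmin, a nucleolar histone and ribosome chaperone (chromosome 5, 171387116 to 171411810, GENCODE v44 on hg38), had the highest level of the members. Its 3 DMSO libraries in MDA-MB-231 held 2550, 2593 and 2628 CPM, and those of MDA-MB-453 held 762, 827 and 748 CPM, a log2 difference of −1.73 ± 0.07 (SE; adjusted p = 3.92e-26). NPM1 has 49 annotated pseudogenes, which together took 767 counts against 126622 for the gene itself. The largest difference was that of MYBBP1A, a nucleolar MYB-binding protein, with 87.2, 91.5 and 91.6 CPM in MDA-MB-231 against 12.7, 15.8 and 11.8 CPM, a log2 difference of −2.74 ± 0.19 (adjusted p = 9.68e-18). It was followed by NOP16, a large-subunit factor, at −2.60 ± 0.14 (211, 218 and 223 CPM against 41.7, 25.8 and 39.9 CPM), and by RRP12, an export and maturation factor, at −2.29 ± 0.19.

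RRN3 and NOP10 went the other way. RRN3, the initiation factor of RNA polymerase I, held 47.3, 27.6 and 37.1 CPM in MDA-MB-231 against 77.2, 65.0 and 55.2 CPM, a log2 difference of 0.82 ± 0.16 (adjusted p = 1.46e-05). NOP10, the small core protein of box H/ACA snoRNPs, held 128, 125 and 115 CPM against 173, 211 and 170 CPM, a log2 difference of 0.59 ± 0.11 (adjusted p = 9.73e-06). Its partner DKC1, or dyskerin, the pseudouridine synthase, in MDA-MB-231 held 588 to 698 CPM, against 716 to 774 CPM, and NOC4L and PES1 likewise did not pass the test between the lines. The call for PPAN, at −0.48 ± 0.22 (adjusted p = 0.0474), was lost without each of 13 libraries in turn and under 3 other settings.

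**Figure D1:**
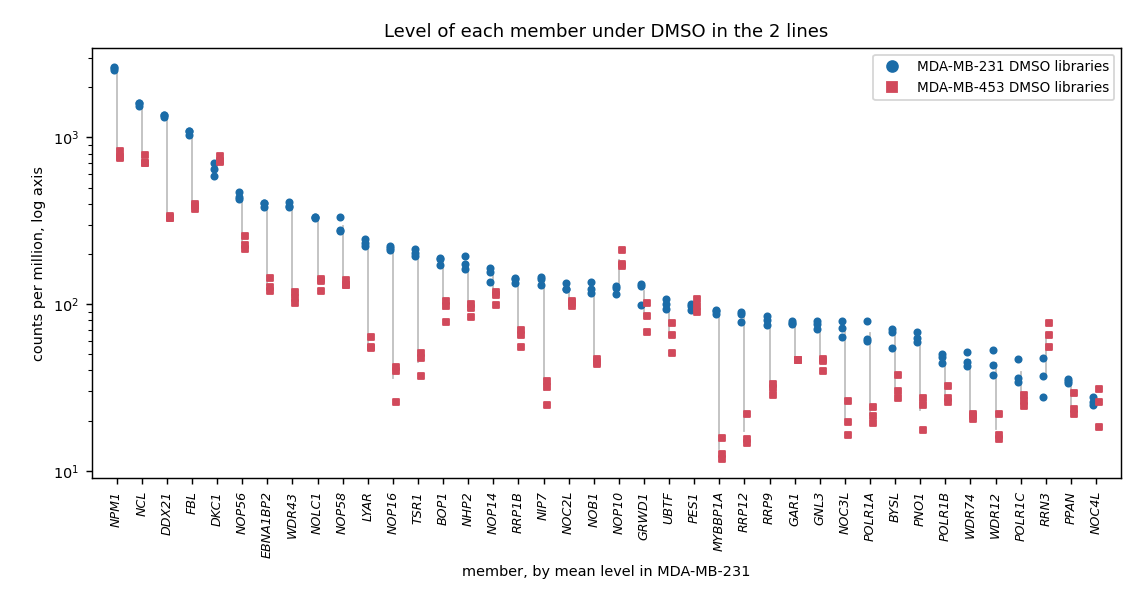
Level of the 40 tested members under DMSO, in CPM on a log axis, ordered by the mean level in MDA-MB-231; each point is 1 library (blue circles, MDA-MB-231; red squares, MDA-MB-453) and the grey line joins the 2 means. NPM1 stands at the left with a mean of 2590 CPM (blue) against 779 CPM (red). All red squares lie above all blue circles for NOP10, RRN3 and DKC1, and DKC1 did not pass the test.

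Most members were lower with abemaciclib in MDA-MB-231. Against DMSO, 29 of the 40 were called lower and none higher, 39 of 40 log2 fold changes were negative, and the median was −0.64, whereas 16.9% of all 11314 genes tested were called lower and their median was −0.00. For 32 members, all 3 abemaciclib libraries lay below all 3 DMSO libraries. The share of all genes that were apart in this way was not counted, so that number has no background beside it. The count of members called was 28 to 30 whichever library was left out.

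All 3 box C/D snoRNP proteins and 2 of 4 box H/ACA proteins fell in MDA-MB-231. FBL, or fibrillarin, the box C/D methyltransferase (chromosome 19, 39834458 to 39846379), went from 1086, 1089 and 1034 CPM to 718, 819 and 613 CPM, a log2 fold change of −0.58 ± 0.09 (adjusted p = 1.32e-06). NOP56, a core scaffold of the same particle, went from 440, 471 and 429 CPM to 257, 315 and 258 CPM (−0.69 ± 0.10, adjusted p = 2.75e-07). In both genes every treated library was below every control library.

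Among the 4 box H/ACA proteins, DKC1 and GAR1 fell and NHP2 and NOP10 did not pass the test. DKC1 (chromosome X, 154762742 to 154777689) went from 649, 698 and 588 CPM to 293, 343 and 360 CPM, a log2 fold change of −0.95 ± 0.10 (adjusted p = 4.58e-10). GAR1, which binds the catalytic core, fell by 0.81 on the log2 scale (SE 0.15). NHP2, an RNA-binding core protein, stood at −0.25 ± 0.11 (adjusted p = 0.0747), with 162, 174 and 195 CPM under DMSO and 159, 150 and 138 CPM with abemaciclib.

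Of the multifunctional nucleolar proteins, 5 of 7 fell in MDA-MB-231. NPM1 went from 2550 to 2628 CPM to 1868, 2095 and 1899 CPM, a modest change of −0.40 ± 0.07 (adjusted p = 2.82e-05). LYAR, a nucleolar cell-growth regulator of pre-ribosomal RNA processing (chromosome 4, 4267701 to 4290154), went from 223 to 245 CPM under DMSO to 117, 120 and 141 CPM (−0.88 ± 0.12, adjusted p = 8.89e-08). The RNA helicase DDX21, nucleolin (NCL) and the snoRNP chaperone NOLC1 fell by 0.83, 0.65 and 0.45 on the log2 scale. GNL3, or nucleostemin, stood at −0.15 ± 0.13 and MYBBP1A at −0.27 ± 0.12, neither of which passed the test.

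The small-subunit factors fell together in MDA-MB-231, with 8 of 9 called. RRP9, a protein of the U3 snoRNP (chromosome 3, 51933429 to 51941904), changed most, from 85.1, 75.1 and 80.1 CPM to 32.0, 37.7 and 36.5 CPM (−1.17 ± 0.14, adjusted p = 1.17e-08). WDR43, a component of the early processome with the most counts in this class, went from 390, 408 and 384 CPM to 189, 219 and 241 CPM (−0.86 ± 0.10, adjusted p = 5.91e-09). NOC4L went from 24.7, 25.9 and 27.7 CPM to 13.4, 15.4 and 18.1 CPM (−0.73 ± 0.23, adjusted p = 0.0118), and the call was lost without abemaciclib replicate 1. The exception was NOB1, the endonuclease that forms the end of 18S rRNA, at −0.15 ± 0.12 (adjusted p = 0.375).

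Of the large-subunit factors, 11 of 12 fell in MDA-MB-231. PPAN went from 35.7, 34.8 and 33.6 CPM to 12.3, 18.7 and 13.6 CPM (−1.22 ± 0.21, adjusted p = 1.14e-05). As 49.2% of its exon bases are shared with the P2RY11 genes on the same strand, the authors' counting could divide its reads. NOC3L was close to it at −1.19 ± 0.16, with 63.1, 79.2 and 71.8 CPM under DMSO and 31.8, 30.6 and 31.1 CPM with abemaciclib. EBNA1BP2, the member of this class with the most counts, went from 404, 403 and 384 CPM to 216, 227 and 246 CPM (−0.79 ± 0.10, adjusted p = 1.14e-08). PES1 and BOP1 fell by 0.54 and 0.64 on the log2 scale, while WDR12, which forms the PeBoW complex with both, stood at −0.24 ± 0.17 (adjusted p = 0.276).

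None of the 5 RNA polymerase I factors was called in MDA-MB-231, where their log2 fold changes ran from −0.23 to −0.07. UBTF, the upstream binding factor that marks active ribosomal genes (chromosome 17, 44205033 to 44221626), held 93.4, 100 and 107 CPM under DMSO and 98.4, 80.4 and 76.4 CPM with abemaciclib (−0.23 ± 0.13, adjusted p = 0.153), and the groups overlapped. POLR1A and POLR1B, the large catalytic subunits, stood at −0.16 ± 0.14 and −0.07 ± 0.16.

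**Figure D2:**
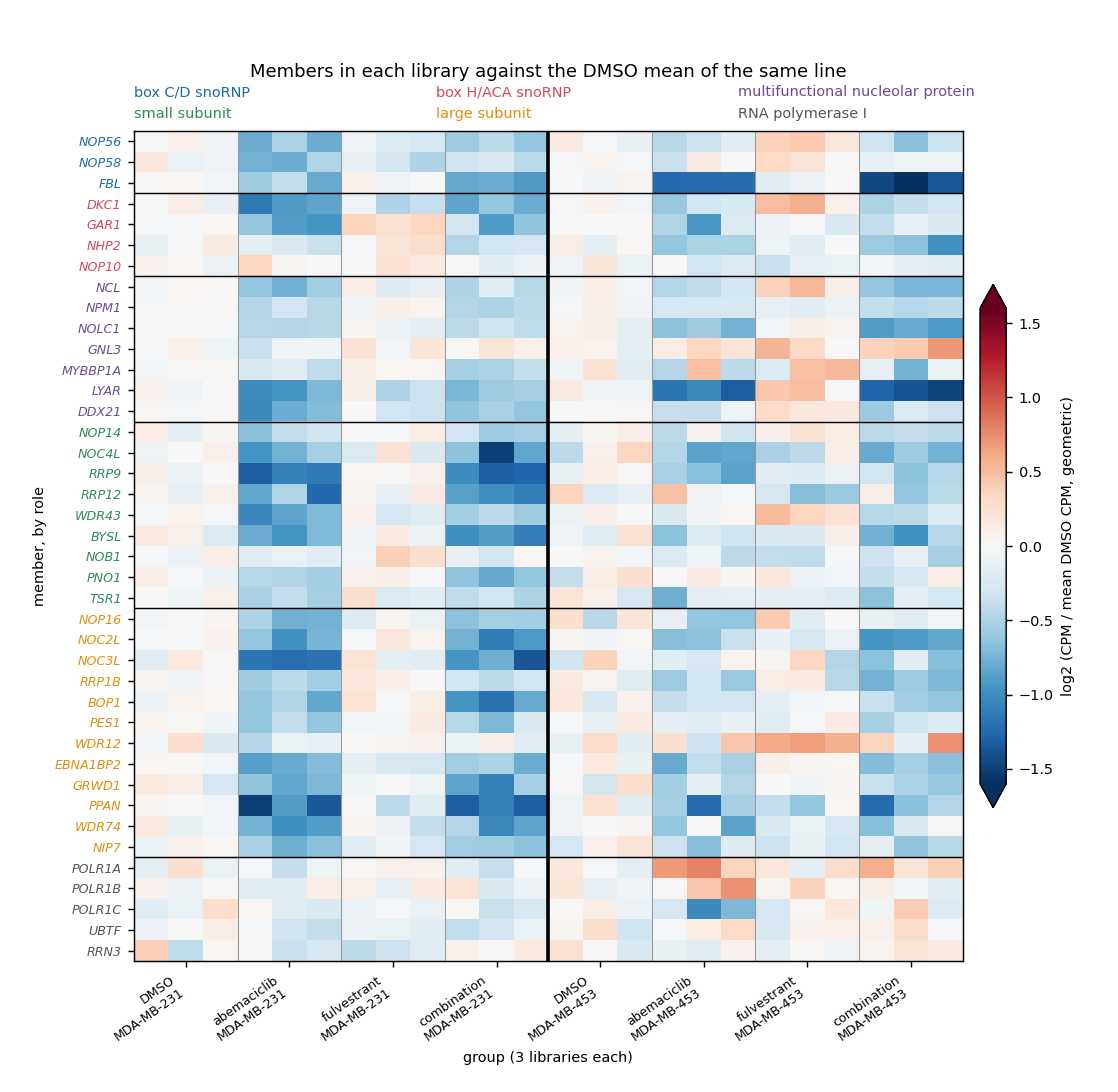
Log2 level of the 40 tested members in each of the 24 libraries, relative to the mean log2 level of the DMSO libraries of the same line; rows are members ordered and coloured by role, columns are libraries by group, blue is lower and red is higher. Blue fills most rows of the abemaciclib and combination columns of MDA-MB-231, with the RNA polymerase I rows, NOP10 and GNL3 among the paler or mixed ones, and FBL and LYAR are the darkest rows in MDA-MB-453.

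In MDA-MB-453, 19 of the 40 members fell with abemaciclib and 1, POLR1A, rose. The median log2 fold change was −0.35 and 33 of 40 values were negative. All 3 treated libraries lay below all 3 controls for 20 members, and the share of all genes apart in this way was again not counted. Of all 11080 genes tested, 19.4% were called lower and 16.6% higher, with a median of −0.00. The count of members called fell to 15 without DMSO replicate 3 or without abemaciclib replicate 2 in turn and was 17 to 20 without any other library.

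FBL changed most among the members in MDA-MB-453. Its 3 libraries went from 388, 371 and 401 CPM to 163, 164 and 164 CPM, a log2 fold change of −1.24 ± 0.09 (adjusted p = 1.17e-15). NOP56 went from 256, 227 and 213 CPM to 170, 182 and 205 CPM (−0.32 ± 0.10, adjusted p = 0.0109), a call that ended without DMSO replicate 1 or abemaciclib replicate 1. The third box C/D protein, NOP58, stood at −0.06 ± 0.11 (adjusted p = 0.707).

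Of the box H/ACA proteins, DKC1, GAR1 and NHP2 fell in MDA-MB-453. NHP2 went from 100, 83.5 and 94.5 CPM to 60.1, 64.9 and 65.2 CPM (−0.55 ± 0.13, adjusted p = 0.000567). DKC1 went from 723, 774 and 716 CPM to 485, 597 and 622 CPM (−0.38 ± 0.10, adjusted p = 0.00134). NOP10 stood at −0.18 ± 0.10 (adjusted p = 0.178).

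The same 5 multifunctional proteins were called in both lines, namely NCL, NPM1, NOLC1, LYAR and DDX21. LYAR went from 63.9, 55.2 and 54.6 CPM to 25.6, 28.3 and 23.1 CPM in MDA-MB-453 (−1.18 ± 0.17, adjusted p = 1.79e-07). NPM1 went from 762, 827 and 748 CPM to 639, 648 and 654 CPM (−0.27 ± 0.08, adjusted p = 0.00336), and the groups did not overlap. NOLC1 fell by 0.67 and NCL by 0.40 on the log2 scale, and the call for DDX21, at −0.28 ± 0.09 (adjusted p = 0.0178), was lost without DMSO replicate 3, abemaciclib replicate 1 or abemaciclib replicate 2.

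Fewer subunit factors were called in MDA-MB-453, with 2 of 9 for the small subunit and 6 of 12 for the large. Of all genes, 19.4% were called lower, so the small-subunit count was near the share over all genes. RRP9 went from 28.4, 33.3 and 31.2 CPM to 21.6, 19.5 and 17.0 CPM (−0.68 ± 0.20, adjusted p = 0.00660). NOC4L held 18.3, 25.8 and 30.9 CPM under DMSO and 17.6, 13.5 and 13.7 CPM with abemaciclib (−0.74 ± 0.24, adjusted p = 0.0132), with the call ended by leaving out DMSO replicate 3 or abemaciclib replicate 2. WDR43 held 102, 118 and 109 CPM and then 93.5, 105 and 112 CPM (−0.09 ± 0.12, adjusted p = 0.580).

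For the large subunit, EBNA1BP2 went from 126, 144 and 119 CPM to 74.0, 98.6 and 90.2 CPM (−0.57 ± 0.12, adjusted p = 0.000104). NOC2L, whose yeast counterpart pairs with that of NOC3L, fell by 0.57 on the log2 scale (SE 0.12). PPAN held 23.4, 29.1 and 22.0 CPM and then 17.1, 10.5 and 17.0 CPM (−0.74 ± 0.25, adjusted p = 0.0160), with the call ended by leaving out DMSO replicate 2 or abemaciclib replicate 2. RRP1B, BOP1 and GRWD1 were also called lower, each with a call that leaving out at least 1 library ended.

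Abemaciclib raised 1 of the 5 RNA polymerase I factors past the threshold in MDA-MB-453, and 1 fell. Among all genes tested in that line, 16.6% rose and 19.4% fell. Both counts were thus near the shares over all genes, and they show no response particular to this class. POLR1A rose from 24.3, 21.4 and 19.4 CPM to 34.7, 37.3 and 27.7 CPM (0.62 ± 0.20, adjusted p = 0.0132), a call ended by leaving out DMSO replicate 3 or abemaciclib replicate 2. POLR1C, a subunit shared with RNA polymerase III, went from 26.3, 28.3 and 24.6 CPM to 21.9, 12.9 and 16.0 CPM (−0.64 ± 0.22, adjusted p = 0.0223), a call lost without DMSO replicate 2, abemaciclib replicate 2 or abemaciclib replicate 3. UBTF held 65.1, 76.9 and 50.6 CPM and then 62.2, 68.8 and 78.5 CPM (0.11 ± 0.15, adjusted p = 0.588), with overlapping groups.

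**Figure D3:**
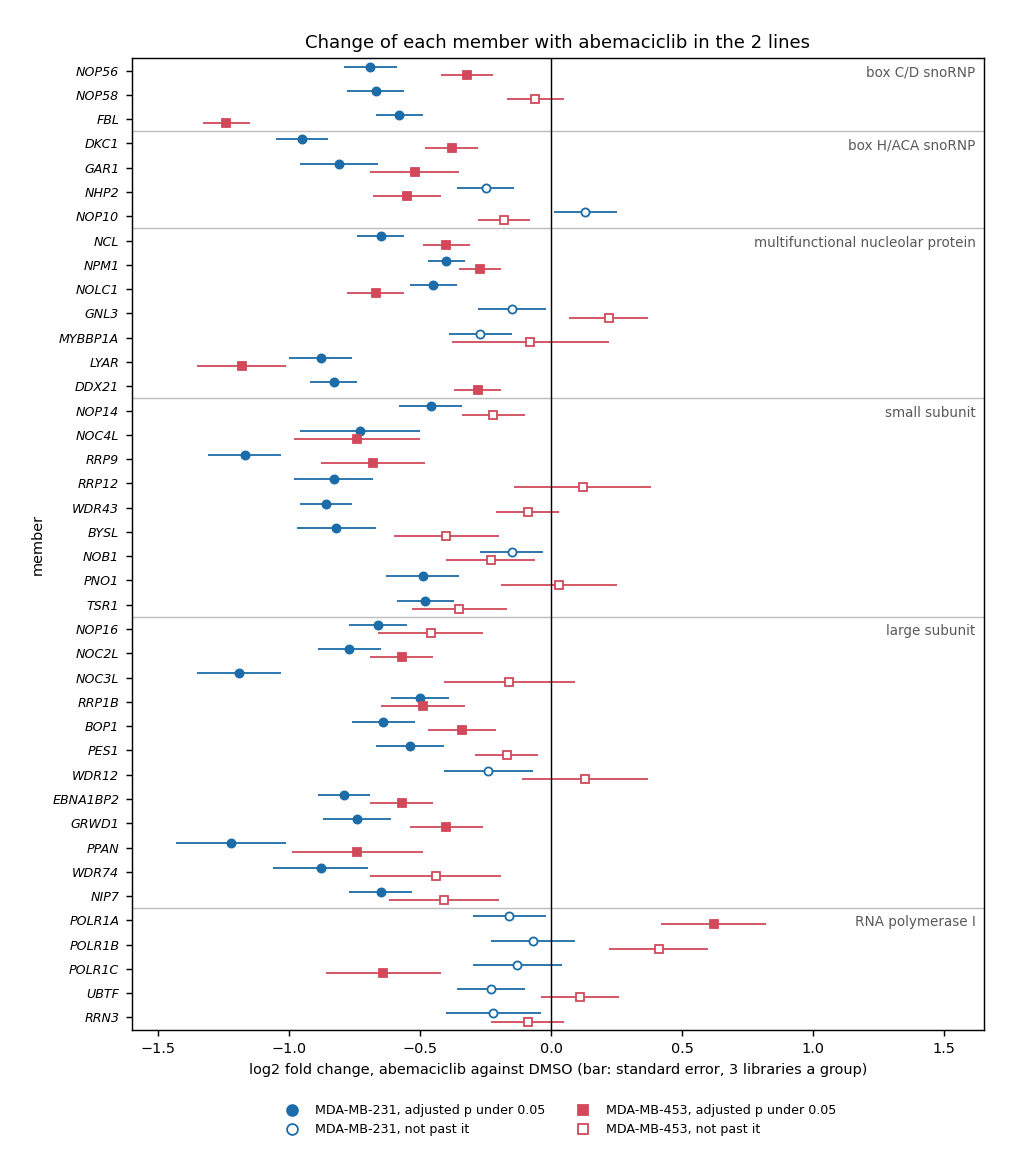
Log2 fold change of each tested member with abemaciclib against DMSO, with its standard error, in MDA-MB-231 (blue circles) and MDA-MB-453 (red squares); filled symbols passed an adjusted p under 0.05. In MDA-MB-231, 29 symbols are filled and left of 0, and in MDA-MB-453 19 are filled to the left and POLR1A is filled to the right at 0.62.

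Side by side, 17 members fell with abemaciclib in both lines, 12 in MDA-MB-231 only, 2 (NHP2 and POLR1C) in MDA-MB-453 only and 9 in neither. The 17 were 59% of the 29 called lower in MDA-MB-231 and 89% of the 19 called lower in MDA-MB-453. Over all genes tested in both lines, 823 were called lower in both, or 46% of the MDA-MB-231 list and 41% of the MDA-MB-453 list. Such shares rise with the length of the lists. The lists held 29 and 19 of 40 members, but 1798 and 1994 of 9691 genes. The shares of members and of all genes therefore cannot be compared directly. Across the 40 members the log2 fold changes of the lines correlated at Pearson's r = 0.46 and Spearman's rho = 0.43, against 0.30 and 0.32 over the 9691 genes tested in both. For the combination against fulvestrant, from other libraries, the order was reversed. There r was 0.24 and rho 0.25 across the members, against 0.35 and 0.38 over the same 9691 genes. These coefficients are across genes, which are not independent replicates.

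The difference between the lines in the response was tested itself, as an interaction over all 24 libraries. For 7 members the change was less negative or more positive in MDA-MB-453, and for 1 it was more negative, against 7.72% and 13.0% of all genes tested. FBL was the member with the more negative change, with a difference of −0.66 ± 0.12 (adjusted p = 6.61e-05). NOC3L differed by 1.03 ± 0.29 (adjusted p = 0.00628): in MDA-MB-453 it held 16.3, 26.1 and 19.6 CPM under DMSO and 17.9, 16.8 and 21.1 CPM with abemaciclib. RRP12 differed by 0.96 ± 0.28 (adjusted p = 0.00914), with 87.8, 78.0 and 90.1 CPM against 47.7, 61.1 and 35.7 CPM in MDA-MB-231, whereas it held 21.9, 14.7 and 15.6 CPM against 23.8, 16.2 and 16.7 CPM in MDA-MB-453. POLR1A differed by 0.78 ± 0.24 (adjusted p = 0.0126), and its MDA-MB-231 libraries held 60.1, 79.5 and 61.5 CPM under DMSO and 65.2, 51.0 and 63.6 CPM with abemaciclib. The difference was 0.77, 0.62, 0.58 and 0.56 for WDR43, NOP58, DKC1 and DDX21. The calls for RRP12, POLR1A, NOP58 and DKC1 were each lost without at least 1 library.

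Fulvestrant alone was compared with DMSO to see how the members behaved under a receptor degrader in cells where its target was almost absent. In MDA-MB-231 no member was called, nor was any of the 11314 genes tested (0%), by edgeR or by DESeq2. At an unadjusted p under 0.05 there were 5 members by either tool, and the smallest was that of DKC1, at −0.30 ± 0.10 (adjusted p = 0.463). The share of all genes at that unadjusted threshold was not counted in this or any other comparison. The count of members called rose to 4, and that over all genes to 205, without fulvestrant replicate 1, the library of that group with the highest LYAR, NCL and DKC1 values.

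In MDA-MB-453, 2 members rose with fulvestrant, DKC1 and NCL, against 1.41% of all genes called in either direction. DKC1 went from 723, 774 and 716 CPM to 1039, 1091 and 780 CPM (0.41 ± 0.10, adjusted p = 0.0175). NCL, nucleolin, an abundant RNA-binding protein of the nucleolus (chromosome 2, 231453531 to 231483641), went from 699, 780 and 703 CPM to 939, 1052 and 773 CPM (0.35 ± 0.09, adjusted p = 0.0296). In both genes replicate 3 of fulvestrant was the lowest of its group, and for NCL it lay within the DMSO range. Both calls were lost without any 1 of the 3 DMSO libraries or without fulvestrant replicate 1 or 2, and 4 members were called without fulvestrant replicate 3 or without abemaciclib replicate 1. Over all genes, the calls went from 156 to 786 without that fulvestrant library and to 276 without that abemaciclib library.

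**Figure D4:**
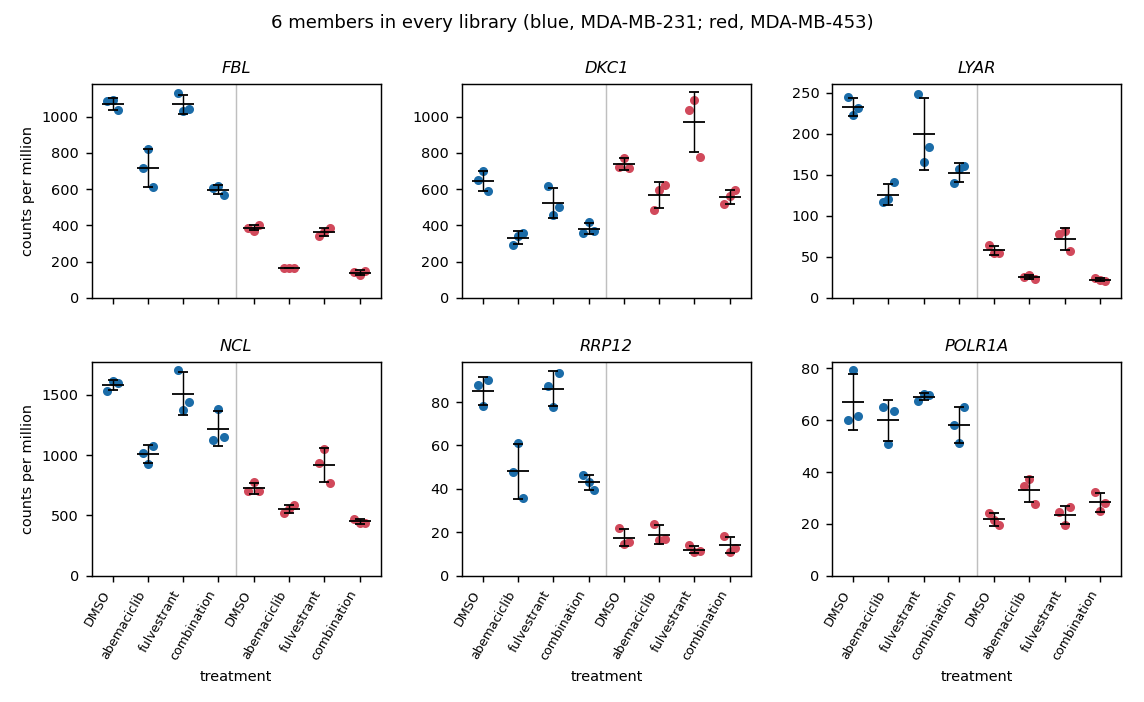
Level (CPM) of 6 members in every library, on axes that start at 0, for the 4 treatments in MDA-MB-231 (blue) and MDA-MB-453 (red); each point is 1 library, and the black bars give the mean and SD of 3. FBL falls to 163 to 164 CPM in all 3 abemaciclib libraries of MDA-MB-453, DKC1 and NCL are spread widely under fulvestrant in that line, and RRP12 and POLR1A show the contrast between the lines.

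Adding fulvestrant to abemaciclib changed no member past the threshold in either line. Against abemaciclib alone, 0.0265% of all genes were called in MDA-MB-231 against 2.46% for MDA-MB-453. At an unadjusted p under 0.05 by edgeR there were 7 and 6 members, with no count over all genes at that threshold. DESeq2 called 1 member in MDA-MB-231 but 0 for MDA-MB-453, against 55 and 312 of all genes. The smallest p belonged to WDR43 in MDA-MB-231, at 0.35 ± 0.10 (adjusted p = 0.167), and to POLR1C in MDA-MB-453, at 0.71 ± 0.22 (adjusted p = 0.0769).

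The interaction of the drugs asks whether the abemaciclib change differs with and without fulvestrant. It was called for 2 of 40 members in MDA-MB-453 and for none in MDA-MB-231, against 3.80% and 0.124% of all genes. The member counts were thus near the shares over all genes. NCL had an interaction of −0.64 ± 0.13 (adjusted p = 0.00134): with fulvestrant present it went from 939, 1052 and 773 CPM to 474, 439 and 439 CPM, and without it from 699, 780 and 703 CPM to 524, 550 and 590 CPM. WDR43 had −0.63 ± 0.16 (adjusted p = 0.0175), from 155, 139 and 129 CPM to 79.7, 81.5 and 94.2 CPM with fulvestrant present, and the call was lost without each of 5 libraries in turn. In MDA-MB-231 there were 12 members at an unadjusted p under 0.05, led by NOP58 at 0.64 ± 0.15 (adjusted p = 0.0655). All genes were not counted at that unadjusted threshold. The MDA-MB-231 count of members called rose to 7 without fulvestrant replicate 1 and to 4 without abemaciclib replicate 3, while the calls over all genes went from 14 to 449 and 160.

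The combination against fulvestrant gives the abemaciclib step again in libraries that the comparison with DMSO did not use. In MDA-MB-231, 31 of 40 members were called lower and none higher, with a median log2 fold change of −0.44, against 18.5% of all genes. In MDA-MB-453, 18 were called lower and none higher, with a median of −0.38, against 19.4%. Of the 29 members lower with abemaciclib alone in MDA-MB-231, 28 were lower here too, which is 97% of the first list and 90% of the second. In MDA-MB-453, 14 members were lower in both steps, or 74% and 78% of the lists. Over all genes tested, the same shares were 69% and 63% in MDA-MB-231 and 69% and 69% in MDA-MB-453. The MDA-MB-453 shares of the members were near those of all genes. Here too the shares rise with the length of the lists. The MDA-MB-231 lists held 29 and 31 of 40 members, but 1907 and 2092 of 11314 genes. The shares of members and of all genes therefore cannot be compared directly.

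RRP9 was again among the largest changes in MDA-MB-231, from 82.0, 81.0 and 83.6 CPM to 39.7, 32.4 and 33.3 CPM (−1.22 ± 0.14, adjusted p = 2.74e-09). BOP1 fell by 1.07 on the log2 scale and PPAN by 1.04. In MDA-MB-453, LYAR went from 77.7, 81.4 and 56.6 CPM to 23.8, 22.2 and 20.7 CPM (−1.70 ± 0.17, adjusted p = 1.75e-11) and FBL from 344, 362 and 386 CPM to 141, 126 and 151 CPM (−1.38 ± 0.09, adjusted p = 4.43e-17). NOP58 did not pass the test in either line in this step, at −0.03 ± 0.11 in MDA-MB-231, whereas the MDA-MB-453 value was −0.28 ± 0.11 (adjusted p = 0.0510) and passed under 3 other settings.

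The members that fell in both steps in both lines numbered 13: NOP56, FBL, DKC1, NCL, NPM1, NOLC1, LYAR, DDX21, NOC2L, RRP1B, BOP1, EBNA1BP2 and GRWD1. They hold box C/D and H/ACA proteins, multifunctional nucleolar proteins and large-subunit factors, and no small-subunit or RNA polymerase I factor. NOP10, WDR12, POLR1B, UBTF and RRN3 were called in no comparison that set abemaciclib against its absence in either line. How many of all genes met either criterion was not counted, so these lists have no background beside them.

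Across the members the log2 fold changes of the steps correlated at Pearson's r = 0.68 in MDA-MB-231 (MDA-MB-453, 0.67), against 0.75 and 0.81 over all genes tested. In this step the difference between the lines was called higher for 4 of 40 members in MDA-MB-453 and lower for 5. It was called for 6.82% and 11.3% of all genes, so the member counts were near those shares. Without the mitochondrial genes in the scaling the difference was called for 4 and 8 members. The median of all genes in this difference then went from −0.05 to −0.15. RRP12, at 1.21 ± 0.29 (adjusted p = 0.00189), and FBL, at −0.55 ± 0.13 (adjusted p = 0.00102), were the members called in the same direction as for abemaciclib alone, whereas LYAR (−1.31 ± 0.20), NCL (−0.73 ± 0.13), RRP9 (0.93 ± 0.22), NOLC1, NOP56, GAR1 and BOP1 were called in this step and not for abemaciclib alone. The calls for NOP56, GAR1 and BOP1 were each lost without at least 1 library.

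**Figure D5:**
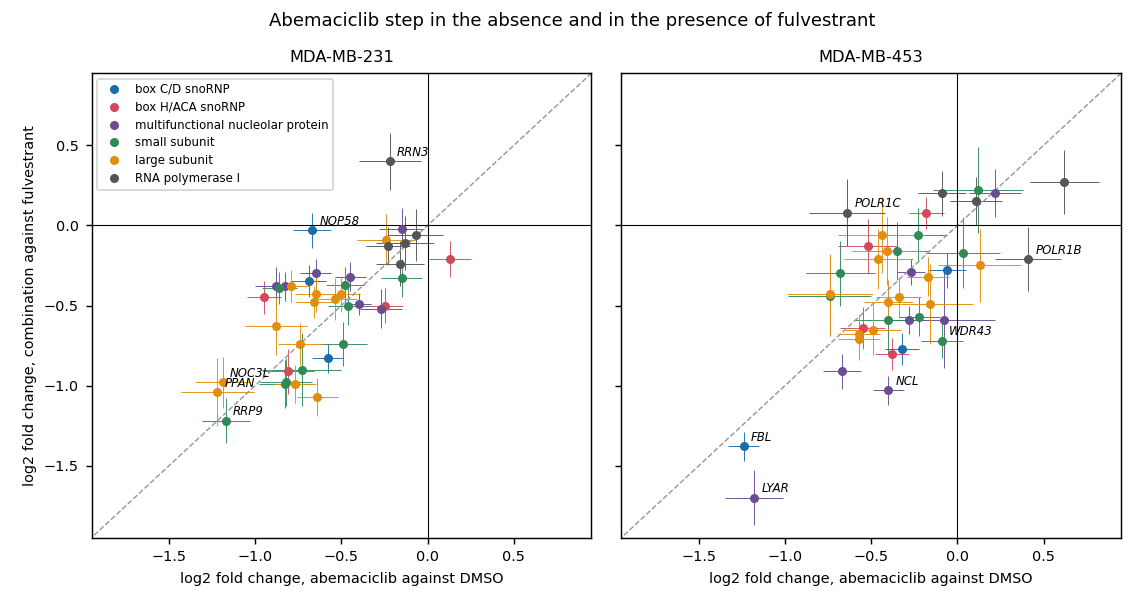
Log2 fold change of each tested member with abemaciclib against DMSO (horizontal) and with the combination against fulvestrant (vertical), each with its standard error, in MDA-MB-231 (left) and MDA-MB-453 (right), coloured by role; the dashed line marks equal values. RRP9 lies near −1.2 on both axes in MDA-MB-231, FBL and LYAR lie lowest in MDA-MB-453, and NOP58 in MDA-MB-231 lies near 0 on the vertical axis only.

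The combination against DMSO, which shares its control libraries with the comparison of abemaciclib alone, gave 31 members called lower in MDA-MB-231 compared with 20 for MDA-MB-453, against 18.3% and 20.0% of all genes. GNL3 rose in MDA-MB-453 (0.52 ± 0.15, adjusted p = 0.00584), a call lost without combination replicate 3. NHP2 and MYBBP1A, not called with abemaciclib alone in MDA-MB-231, stood at −0.35 ± 0.11 (adjusted p = 0.0111) and −0.47 ± 0.12 (adjusted p = 0.00224) with the combination, and the call for NHP2 was lost without DMSO replicate 3 or combination replicate 1. No RNA polymerase I factor was called in either line.

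A list of 135 other ribosome biogenesis genes from the same pathway gave the setting. With abemaciclib in MDA-MB-231, 84 of the 133 tested were called lower and 1 higher, with a median of −0.47, and in MDA-MB-453, 33 of 134 were lower and 8 higher, with a median of −0.17. By class in MDA-MB-231, 32 of 47 small-subunit factors, 34 of 53 large-subunit factors, 8 of 14 exosome subunits, 3 of 9 snoRNP assembly factors and 7 of 10 further RNA polymerase I genes fell. In MDA-MB-453 the same classes gave 11 of 48, 8 of 53, 7 of 14, 4 of 9 and 3 of 10. Of all genes, 16.9% were called lower in MDA-MB-231 and, for MDA-MB-453, 19.4%, so the MDA-MB-453 counts of both subunit classes were near the share over all genes.

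TCOF1, or treacle, a nucleolar cofactor of RNA polymerase I, went from 425, 366 and 350 CPM to 149, 146 and 186 CPM in MDA-MB-231 (−1.24 ± 0.12, adjusted p = 2.12e-11). EXOSC9, a core subunit of the RNA exosome that trims ribosomal precursors, went from 127, 111 and 116 CPM to 43.2, 37.1 and 46.6 CPM in MDA-MB-231, whereas in MDA-MB-453 it went from 52.1, 77.4 and 50.6 CPM to 24.3, 28.0 and 23.1 CPM (−1.47 ± 0.15 and −1.26 ± 0.18). EXOSC8, another exosome subunit, fell by 1.19 on the log2 scale in MDA-MB-453. The large-subunit factor NOP53 rose by 0.33 ± 0.10 in MDA-MB-231, and SDAD1, a large-subunit factor, and RIOK3, a small-subunit kinase, rose by 0.71 ± 0.15 and 0.66 ± 0.23 in MDA-MB-453.

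MYC itself did not pass the test with abemaciclib. It held 29.8, 28.5 and 33.6 CPM under DMSO and 37.3, 23.7 and 36.7 CPM with abemaciclib in MDA-MB-231 (0.10 ± 0.19, adjusted p = 0.733), and 20.1, 38.6 and 24.0 CPM against 32.1, 26.5 and 36.8 CPM in MDA-MB-453 (0.19 ± 0.22, adjusted p = 0.534). Of the 8 genes of the MYC network tested in MDA-MB-231, 1 was called, against 3815 of all 11314 genes called in either direction. MXD4, which pairs with MAX and represses E-box genes, rose there from 13.1, 13.8 and 13.5 CPM to 57.4, 50.7 and 47.6 CPM (1.95 ± 0.19, adjusted p = 4.32e-11). MXD1, MXD3 and MGA are further partners of MAX. Of the 9 tested in MDA-MB-453, 3 were called higher and 1 lower, against 16.6% and 19.4% of all genes. MXD4 rose there by 0.88 ± 0.11, MXD1 by 0.88 ± 0.32 and MGA by 1.67 ± 0.68 from a mean of 1.04 CPM. MXD3 fell from 16.0, 17.2 and 13.0 CPM to 2.67, 0.601 and 0 CPM (adjusted p = 2.15e-08). The part of these genes in the members' levels was not tested.

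NOP2 had 5 counts over all 24 libraries. In the annotation, 54.4% of its exon bases are shared with another gene on the same strand. In all, 11 members overlap an exon of a same-strand gene and 19 that of an opposite-strand gene, among the latter NHP2 (28% of its exon bases), TSR1 (26.9%), NOP14 (20.7%), NOB1 (20.4%), NOP16 (18.6%), NIP7 (18.4%) and POLR1C (18.3%). Whether strand was used in the authors' counting is not given in the sources used here, so reads of such neighbours cannot be told apart from those of these members.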

How the data were processed

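Libraries were made from RNA of both lines with a 3′ mRNA kit (QuantSeq FWD), per the study's methods. The authors trimmed the reads, aligned them to hg38 with STAR and counted them per gene with featureCounts, and the deposited values are raw counts, with no normalization. Totals were 2873558 to 4158762 counts, and the row that named no gene held 0 counts and was left out. Groups came from the labels. The study states that each condition had 3 separately grown cultures in an experiment done once, so p-values measure the spread between cultures of 1 experiment. All 24 pairs of replicates differed beyond sampling noise (chi-square per degree of freedom from 2.70 to 9.49).

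The tests used edgeR 4.0.16 under R 4.3.3 (filterByExpr, TMM factors, quasi-likelihood test, two-sided) on the 12 libraries of each line, and on all 24 for comparisons between lines. P-values were adjusted over all genes tested by the Benjamini-Hochberg method, and an adjusted p under 0.05 was called. The scripts were tested on simulated data. Alternatives were DESeq2 1.42.0, its size factors, no filter on low counts, only the groups compared, a replicate block, no mitochondrial genes, and each library left out in turn. The 41 members, the gene lists and the rule for named genes were chosen with earlier results of these data known. Values per library were given for the member of each role with the most counts, the member of each role with the largest called change with abemaciclib in each line, up to 5 members called for fulvestrant or the interaction, and the 3 members with the largest called difference between lines in each direction. From the other ribosome biogenesis genes, the 2 largest called changes in each direction and line were named, among genes with a mean of at least 10 CPM, and from the MYC network MYC and the called genes. Members named beyond these were chosen after their values were seen. Gene positions and shared exon bases are from GENCODE v44, and promoters from RefSeq. Some markers of the lines are not reported here.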

Additional observations from a re-analysis of the deposited data

Results flagged for a closer look

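For 8 members the change with abemaciclib differed between the lines by a test of the difference itself (edgeR's quasi-likelihood test over all 24 libraries, Benjamini-Hochberg adjusted), with values given as MDA-MB-453 minus MDA-MB-231 on the log2 scale. NOC3L differed by 1.03 ± 0.29 (adjusted p = 0.00628), from a change of −1.19 (MDA-MB-231) and −0.16 (MDA-MB-453). RRP12 differed by 0.96 ± 0.28 (adjusted p = 0.00914), from −0.83 and 0.12, and POLR1A by 0.78 ± 0.24 (adjusted p = 0.0126), from −0.16 and 0.62. WDR43 differed by 0.77 ± 0.15 (adjusted p = 0.000125), from −0.86 and −0.09, NOP58 by 0.62 ± 0.16 (adjusted p = 0.00447), from −0.67 and −0.06, and DKC1 by 0.58 ± 0.15 (adjusted p = 0.00384), from −0.95 and −0.38. DDX21 differed by 0.56 ± 0.13 (adjusted p = 0.00155), from −0.83 and −0.28. FBL went the other way, with a difference of −0.66 ± 0.12 (adjusted p = 6.61e-05), from −0.58 and −1.24.

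The group means of the combination against fulvestrant come from other libraries than those of the first difference. Both tests share 1 estimate of the spread from all 24 libraries, so they are not fully separate. In this step RRP12 (1.21, adjusted p = 0.00189) and FBL (−0.55, adjusted p = 0.00102) passed the same test in the same direction. The difference was 0.49 for NOC3L (adjusted p = 0.256) and 0.52 for POLR1A (adjusted p = 0.126). WDR43, NOP58, DKC1 and DDX21 had differences of the opposite sign in that step, at −0.33, −0.24, −0.34 and −0.21, none of which passed the test. With abemaciclib the mitochondrial share went from 8.83% to 12.2% of counts in MDA-MB-231 and from 15.2% to 23.8% for MDA-MB-453. Without the mitochondrial genes the count for abemaciclib was again 7 higher and 1 lower, all 8 of them shared with the count given in full.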

How the results depend on the processing

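Counts of members called kept within 1.5 times of their value in every alternative for abemaciclib, the combination against DMSO and the combination against fulvestrant in both lines, and for the comparison of the lines under DMSO. Leaving out each library in turn gave 28 to 30, 29 to 31 and 28 to 31 for those 3 comparisons in MDA-MB-231, 15 to 20, 16 to 21 and 16 to 19 in MDA-MB-453, and 35 to 37 between the lines. The difference between lines gave 6 to 9 members for abemaciclib and 6 to 11 for the combination against fulvestrant. Counts near 0 moved more. DESeq2 called 1 member for the combination against abemaciclib and 1 for the interaction in MDA-MB-231, and 4 for fulvestrant in MDA-MB-453. Over all genes these counts went from 3, 14 and 156 by edgeR to 55, 65 and 294. Without the filter on low counts there were 3 for the interaction in MDA-MB-231, and 1 for the combination against abemaciclib and 4 for the interaction in MDA-MB-453. Over all genes these counts went from 14, 273 and 421 with the filter to 132, 368 and 507. With only the groups compared, 1 member and 354 of all genes were called for the combination against abemaciclib in MDA-MB-453. This setting was not run for the interactions. Leaving out each library gave 0 to 4 for fulvestrant, 0 to 3 for the combination against abemaciclib and 0 to 7 for the interaction in MDA-MB-231, and 0 to 4, 0 to 2 and 1 to 4 in MDA-MB-453. The highest counts came without fulvestrant replicate 1 or abemaciclib replicate 3 in MDA-MB-231, and without abemaciclib replicate 1 or fulvestrant replicate 3 in MDA-MB-453. With a library left out, some log2 fold changes of uncalled members with abemaciclib changed sign: in MDA-MB-453, UBTF ran from −0.03 (without DMSO replicate 3) to 0.26, NOC3L from −0.31 to 0.04 (without DMSO replicate 2) and RRP12 from −0.08 (without abemaciclib replicate 1) to 0.32, and in MDA-MB-231, POLR1C ran from −0.22 to 0.03 (without DMSO replicate 3). The cause was not tested. Same-numbered libraries of a line did not deviate together, with r from −0.09 to 0.03 over 36 pairs, so the numbers do not pair them. With the replicate number as a block, 29, 31 and 31 members were called for abemaciclib, the combination against DMSO and the combination against fulvestrant in MDA-MB-231, and 20, 21 and 18 in MDA-MB-453. The block gave 36 between the lines. The biological coefficient of variation was 13.4% (MDA-MB-231) and 12.6% (MDA-MB-453), and low members such as NOC4L and PPAN had the larger standard errors.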
